A study of Mus musculus with 11 samples.

Results

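The genes of the cytosolic ribosomal proteins were followed in the RNA of mouse hearts 3 days after myocardial infarction (MI). Members were the protein-coding genes whose symbol has the form Rpl or Rps plus a number, with the lettered forms (such as Rpl10a, Rps4x and Rpl3l), together with Rplp0, Rplp1, Rplp2 and Rpsa. This gave 83 genes among the 55421 gene IDs of the count table, 51 of the large and 32 of the small ribosomal subunit. The rule uses symbols and biotype. Of the 83, 81 had enough counts to be tested, and Rpl10l and Rpl39l did not, with at most 5 and 13 counts in any heart. A further 6 symbols of this form, Rps4l among them, are annotated as pseudogenes and were not members.

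All mice were female C57BL/6J animals of 8 weeks, and no transgene or deletion is given for any group. In the DMSO group (n = 4) the left anterior descending artery (LAD) was permanently ligated and the mice received the solvent dimethyl sulfoxide. In the A10i group (n = 4) the artery was ligated and the mice received the ADAM10 inhibitor GI254023X at 100 mg/kg from an osmotic minipump in the same solvent. In the sham group (n = 3) the operation was done without ligation and DMSO was given. RNA came from the infarct and its border zone in both ligated groups and from healthy heart tissue in sham, so that ligation and the piece of tissue taken cannot be told apart, and no inhibitor-treated sham hearts were analysed here. Each library was 1 mouse, and mice are named by their numbers (S1 to S3, A105, A127, A128 and A129 for DMSO, A116, A117, A119 and A120 for A10i).

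Ribosomal proteins surround the ribosomal RNA in the large subunit, which joins amino acids, and in the small subunit, which reads the mRNA. Cells keep them in near equal amounts, and their mRNAs start with a run of pyrimidines, the terminal oligopyrimidine tract, through which growth signalling by mTOR controls their translation. Growing and dividing cells make many ribosomes, while striated muscle has a form of its own, Rpl3l, which takes the place of Rpl3 in part of its ribosomes.

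Total counts ran from 21702623 to 29511768 per library. The summed level of 15 cardiomyocyte markers was 110000 to 112000 CPM (counts scaled to a common library size) in sham, 49900 to 75400 in DMSO and 63700 to 87200 in A10i, so that the labelled tissue was recognised in every library. Against sham, 8 of these markers were lower in DMSO and 5 in A10i at the threshold used below, beside 9.6% and 9.11% of all genes tested. Tnnt2 was the 1 marker above 0 in DMSO, with log2 fold changes of 0.10 there and -0.02 in A10i, neither past the threshold. The 12 neutrophil markers summed to 3.89 to 5.28 CPM in sham, where Trem1 was at 0 in every mouse, to 121 to 233 in DMSO and to 32.4 to 92.5 in A10i. The 12 macrophage markers summed to 243 to 266, 399 to 707 and 539 to 937 CPM, and 10 fibroblast markers to 1300 to 1410, 2260 to 7470 and 5320 to 10100 CPM, in the same order of groups. The 10 endothelial markers lay at 1750 to 1790, 1470 to 1600 and 1760 to 1940 CPM and 6 erythroid markers at 591 to 1300, 232 to 3700 and 1050 to 5030 CPM. The 10 lymphoid markers lay at 1.69 to 4.29, 1.06 to 3.63 and 2.2 to 4.28 CPM, and 12 proliferation genes at 50.3 to 81.6, 78.7 to 312 and 147 to 368 CPM. Neutrophil, macrophage and fibroblast sums were higher in every ligated heart than in any sham heart, and their part in the results below was not tested. In bulk tissue, fewer cells of a type and less RNA per cell cannot be told apart.

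The start of these genes is shown first, because a pyrimidine run there is common in the family. RefSeq start sites (GRCm38.p6) were given for 63 of the 83 members. Each line holds 25 bases, from 10 before to 15 from the listed first base of the mRNA on, with runs of at least 8 C or T in capitals. Members with such a run come first, and Rpl3l and Rpl7l1, which have none in these windows, come last. Rpl3l had 2 listed starts, and only that with the lower coordinate is shown.
Rps6 (chr4:86857353-86857377, minus strand): gaagtcgggCCTCTTTTTCgtgacg
Rpl13a (chr7:45128731-45128755, minus strand): cctgcgacaagaCCTCCTCCTTTCC
Rps27 (chr3:90213634-90213658, minus strand): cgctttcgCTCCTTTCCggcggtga
Rplp2 (chr7:141447641-141447665, plus strand): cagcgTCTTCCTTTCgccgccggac
Rpl38 (chr11:114668570-114668594, plus strand): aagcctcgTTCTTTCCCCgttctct
Rpl22l1 (chr3:28805498-28805522, plus strand): gcgcaagcccgTTCTCTTCCCacgg
Rpl3l (chr17:24727816-24727840, plus strand): ttctagctctgtcatttgacctctg
Rpl7l1 (chr17:46782642-46782666, minus strand): gctgcgcaagcgcagtagctgaagc

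Over the stretch from 20 bases before to 50 bases after the start, read on the sense strand, 48 of the 63 members (76.2%) had a run of at least 8 C or T. The same held for 28.5% of all 27025 genes with a listed start, for 28.0% of the genes tested and for 18 of 69 mitochondrial ribosomal protein genes (26.1%). The letters CCGGAAG, the core bound by ETS factors such as GABP, were found on either strand of the 300 bases around the start in 26 of the 63 members (41.3%), in 26 of the 69 mitochondrial ribosomal protein genes (37.7%), in 18.5% of the genes tested and in 9.93% of all genes. On the opposite strand the core reads CTTCCGG, whose first 5 letters can lie within a pyrimidine run.

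Measured levels differed widely between members and went with how much sequence they share with other genes. The mouse genome holds many processed copies of ribosomal protein mRNAs, and only uniquely aligned reads were counted by the authors. Of the 83 members, 75 shared at least 1 stretch of 100 bases with a transcript of another gene, and the median member shared 33.9% of such stretches. The 14 tested members with at most 10% shared had a median sham level of 97.9 CPM, and the 31 with over 50% shared had one of 7.08 CPM. The percentage was taken over 1 mRNA per gene, and those of Rps20 and Rps15a were long, at 3706 and 5179 bases. A longer mRNA with the same shared part gives a lower percentage. Rps27, a small subunit protein with a zinc finger, shared 98.4% of its stretches and was measured at 0.785 to 1.169 CPM in sham. Rpl8, a large subunit protein with 1.41% shared, was measured at 265 to 273.6 CPM. Per kilobase of exon, Rplp1, Rps15 and Rpl8 were the highest members in sham, at 248, 222 and 198 CPM per kb, and Rps13, Rps10 and Rpl24 the lowest, at 0.59, 0.642 and 0.816 CPM per kb. Across the 81 members, which share their libraries, the shared percentage and the sham level per kb had a Spearman rho of -0.602. Each gene is therefore compared between mice below, and levels of different members are set against each other only for Rpl3l and Rpl3, as a percentage in each mouse.

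**Figure D1:**
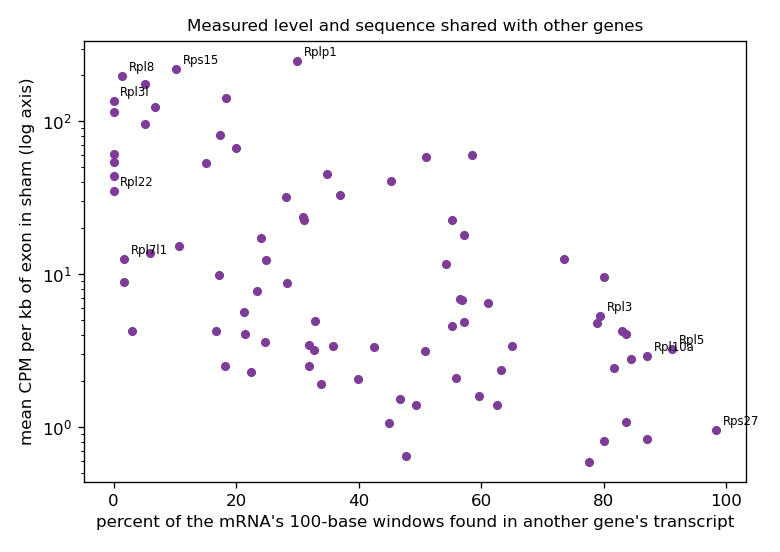
Each point is 1 of the 81 tested ribosomal protein genes. The x axis gives the percent of 100-base stretches of its mRNA that occur in a transcript of another gene, and the y axis the mean CPM per kb of exon in the 3 sham mice on a log axis. Rpl8 and Rpl3l, at 1.41% and 0% shared, lie high, and Rps27, at 98.4%, lies near the bottom.

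Most members were higher after infarction with solvent. The question here was how the genes of the ribosome stood in the infarct region without the inhibitor. Of the 81 members tested, 51 were higher in DMSO than in sham at an adjusted p under 0.01 (edgeR quasi-likelihood test with Benjamini-Hochberg adjustment over all 17117 genes tested, here called). Among all genes tested, 12.9% were called higher. The one member called lower was Rpl3l, where 9.6% of all genes were. The log2 fold change was above 0 in 80 members, compared with 50.2% of all genes, and its median was 0.52 over the members and 0.00 over all genes. In 72 members every DMSO mouse lay above every sham mouse, a pattern that 25.1% of all genes tested showed. The share of members is well above these backgrounds.

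Leaving out 1 sham mouse lowered the count of calls. Without mouse S1, S2 or S3 the members called higher fell to 14, 14 and 19, while the share of all genes called higher fell to 5.55%, 5.27% and 5.37%. The median of the members rose to 0.74 when libraries were scaled by total counts alone, a scaling that also moved the median of all genes to 0.21.

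Members together held 0.3455%, 0.3433% and 0.3595% of all counts in the sham mice. In the DMSO mice A105, A127, A128 and A129 they held 0.4982%, 0.5593%, 0.4822% and 0.6385%. In the A10i mice A116, A117, A119 and A120 the shares were 0.5829%, 0.4874%, 0.4649% and 0.513%. Every ligated heart lay above every sham heart, and the DMSO and A10i hearts overlapped. The 301 genes named as ribosomal protein pseudogenes held 0.2344% to 0.2489% in sham and 0.3407% to 0.502% in the ligated hearts, and reads from them and from their parent genes are not always separable. Mouse A129, which had the lowest cardiomyocyte marker sum (49900 CPM), had the highest level of all 11 mice in 47 of the 81 members. How often A129 was highest over all genes was not counted.

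**Figure D2:**
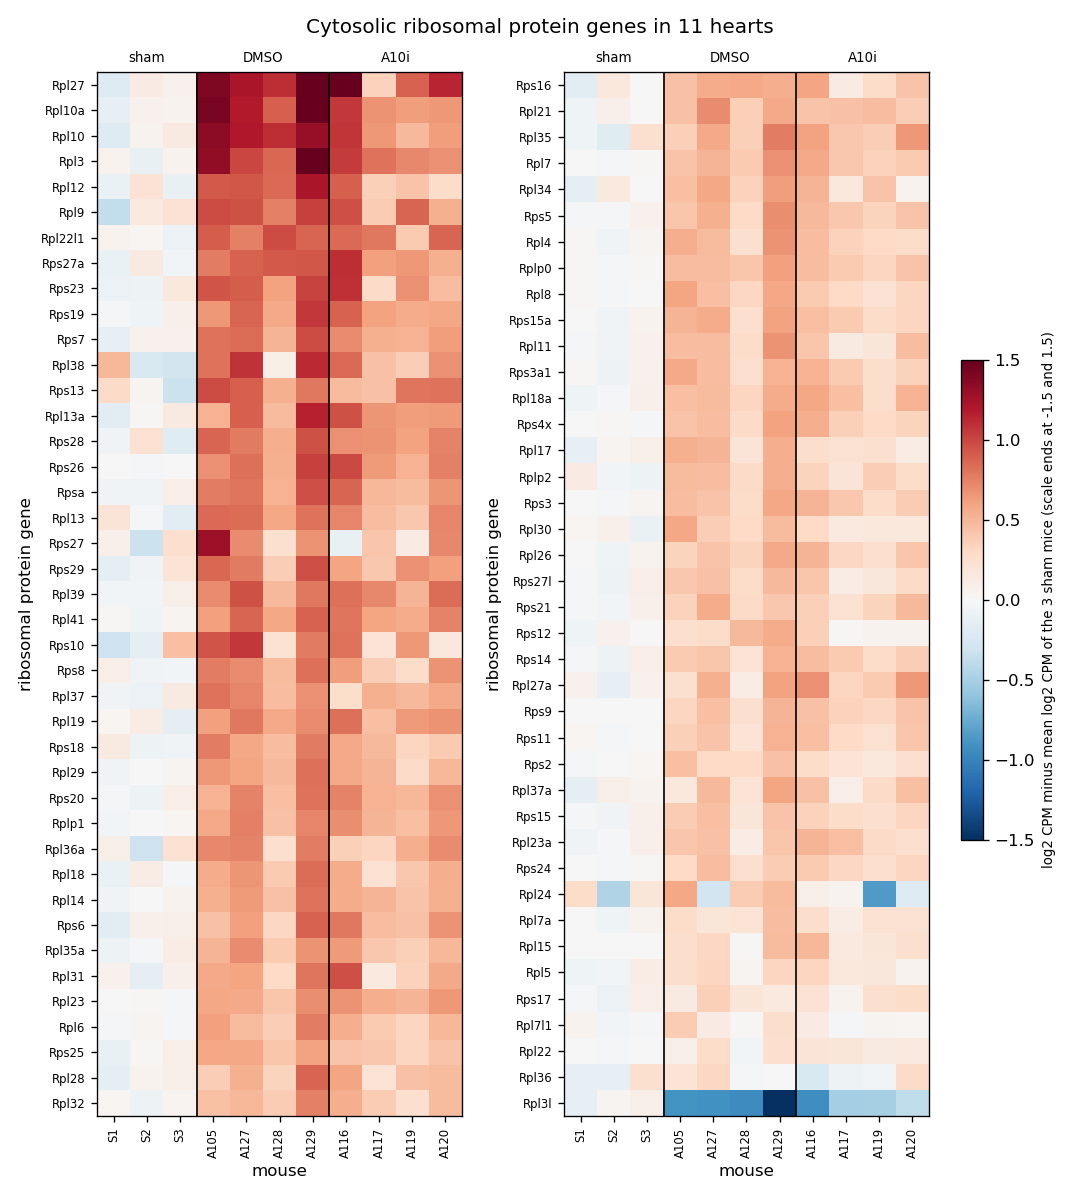
Each row is a tested ribosomal protein gene, ordered by its change between DMSO and sham, and each column a mouse. Colour gives log2 CPM minus the mean log2 CPM of the 3 sham mice, from blue (lower) to red (higher). Nearly all rows are red in the 8 ligated hearts, and Rpl3l, in the last row, is blue in all 8.

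Among the 43 large subunit members outside the stalk and the paralog forms, 25 were called higher and none lower in DMSO, with a median log2 fold change of 0.53. Rpl10, among the last proteins loaded onto the large subunit, was at 5.02, 5.94 and 6.29 CPM in sham and at 14.5, 13.2, 12.4 and 14.1 CPM in DMSO. The groups were far apart, and the log2 fold change was 1.23 ± 0.12 (SE, edgeR adjusted p = 0.000161). Rpl10a, a protein of the L1 stalk, stood at 6.5, 7.4 and 7.34 CPM in sham and at 18.9, 16.1, 13.2 and 20.2 CPM in DMSO. Its log2 fold change was 1.26 ± 0.16 (edgeR adjusted p = 0.000403), with no overlap. The largest change of any member, chosen here after its values were seen, was that of Rpl27, at 1.36 ± 0.20 (edgeR adjusted p = 0.000826), from 1.86 to 2.32 CPM in sham to 4.59 to 6.94 CPM in DMSO. Rpl10, Rpl10a and Rpl27 share 84.4%, 87.1% and 49.3% of their 100-base stretches with other genes.

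Rpl41, which encodes the shortest ribosomal protein, was well covered, at 91.3 to 97.9 CPM in sham and 142 to 176 CPM in DMSO. It rose by 0.74 ± 0.10 on the log2 scale (edgeR adjusted p = 0.000682). Rpl39, a small protein lining the exit tunnel, rose by the same 0.74 ± 0.12 (edgeR adjusted p = 0.00135). Rpl13a, known for a role in the silencing of inflammatory mRNAs when it is released from the ribosome, rose by 0.78 ± 0.18 (edgeR adjusted p = 0.00698). Rpl5 and Rpl11, the proteins that carry 5S rRNA and hold the p53 regulator Mdm2 when ribosome assembly fails, were not called, at 0.24 ± 0.11 and 0.47 ± 0.14 (edgeR adjusted p = 0.103 and 0.0277). Rpl38, needed for the translation of Hox mRNAs in the embryo, missed the threshold at 0.78 ± 0.31 (edgeR adjusted p = 0.068), from only 1.09 to 1.86 CPM in sham. Rpl24 was not called either, at 0.28 ± 0.31 (edgeR adjusted p = 0.492), with sham and DMSO mice overlapping.

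Of the 31 small subunit members 21 were called higher in DMSO and none lower, with a median of 0.54. Rpsa, which is also known as the laminin receptor, was at 69.5, 69.7 and 77.5 CPM in sham and at 122, 126, 104 and 141 CPM in DMSO. It rose by 0.77 ± 0.11 on the log2 scale without overlap (edgeR adjusted p = 0.000776). Rps4x, an X-linked core protein, rose by 0.45 ± 0.09 (edgeR adjusted p = 0.00325), from 73.2 to 74.7 CPM in sham to 90.6 to 112 CPM. Rps20, with 5.91% shared stretches over the long mRNA used, rose by 0.64 ± 0.10 (edgeR adjusted p = 0.00144). Rps6, the protein that S6 kinase phosphorylates, was at 5.72, 6.73 and 6.77 CPM in sham and 8.68, 9.82, 7.91 and 11.8 CPM in DMSO. The groups did not overlap, yet the change of 0.57 ± 0.16 missed the threshold (edgeR adjusted p = 0.0171). Rps14, a protein of the platform whose loss causes the anaemia of the 5q deletion, missed it as well at 0.38 ± 0.10 (edgeR adjusted p = 0.0121), as did Rps15 at 0.36 ± 0.09 (edgeR adjusted p = 0.0126) and Rps27 at 0.75 ± 0.29 (edgeR adjusted p = 0.0685).

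The 3 stalk proteins, which recruit the elongation factors, were all called higher. Rplp0, the base of the stalk and often taken as a reference gene for normalisation, was at 239, 232 and 238 CPM in sham and at 325, 325, 316 and 361 CPM in DMSO. The DMSO mice lay above all sham mice, by 0.49 ± 0.09 on the log2 scale (edgeR adjusted p = 0.00275). Rplp1 rose by 0.63 ± 0.10 (edgeR adjusted p = 0.00128) and Rplp2 by 0.44 ± 0.09 (edgeR adjusted p = 0.00529).

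The paralog forms did not go one way. Rpl22l1, the counterpart of Rpl22, was at 6.5, 6.43 and 5.93 CPM in sham and at 11.8, 10.6, 12.4 and 11.5 CPM in DMSO. It rose by 0.88 ± 0.11 (edgeR adjusted p = 0.000437). Rpl22 itself, with no shared stretch, was at 102 to 103 CPM in sham and 99.9 to 124 CPM in DMSO, and its difference of 0.15 ± 0.09 was not called (edgeR adjusted p = 0.229). The difference between Rpl22l1 and Rpl22 was not tested. Rps27l, a p53 target with no shared stretch, rose by 0.40 ± 0.08 (edgeR adjusted p = 0.0044). Rpl7l1, which takes the place of Rpl7 during ribosome assembly, was not called, at 0.20 ± 0.09 (edgeR adjusted p = 0.124). Rpl3l fell and is described with Rpl3 below.

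Members with a low shared percentage were mostly higher too. Of the 14 tested members with at most 10% shared stretches, 11 were called higher in DMSO and Rpl3l lower, with a median of 0.46. Of the 31 with over 50% shared, 16 were called higher, with a median of 0.61. Among all genes tested, 12.9% were called higher. The median sham level was 97.9 CPM in the former group and 7.08 CPM in the latter, so that shared sequence and level cannot be told apart here. The group with at most 10% includes Rps20 and Rps15a, whose percentages were taken over long mRNAs. Over the 81 members the log2 fold change had a Spearman rho of 0.319 with the shared percentage and of -0.461 with the sham level in CPM. Both are given as a description of genes that share their libraries.

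**Figure D3:**
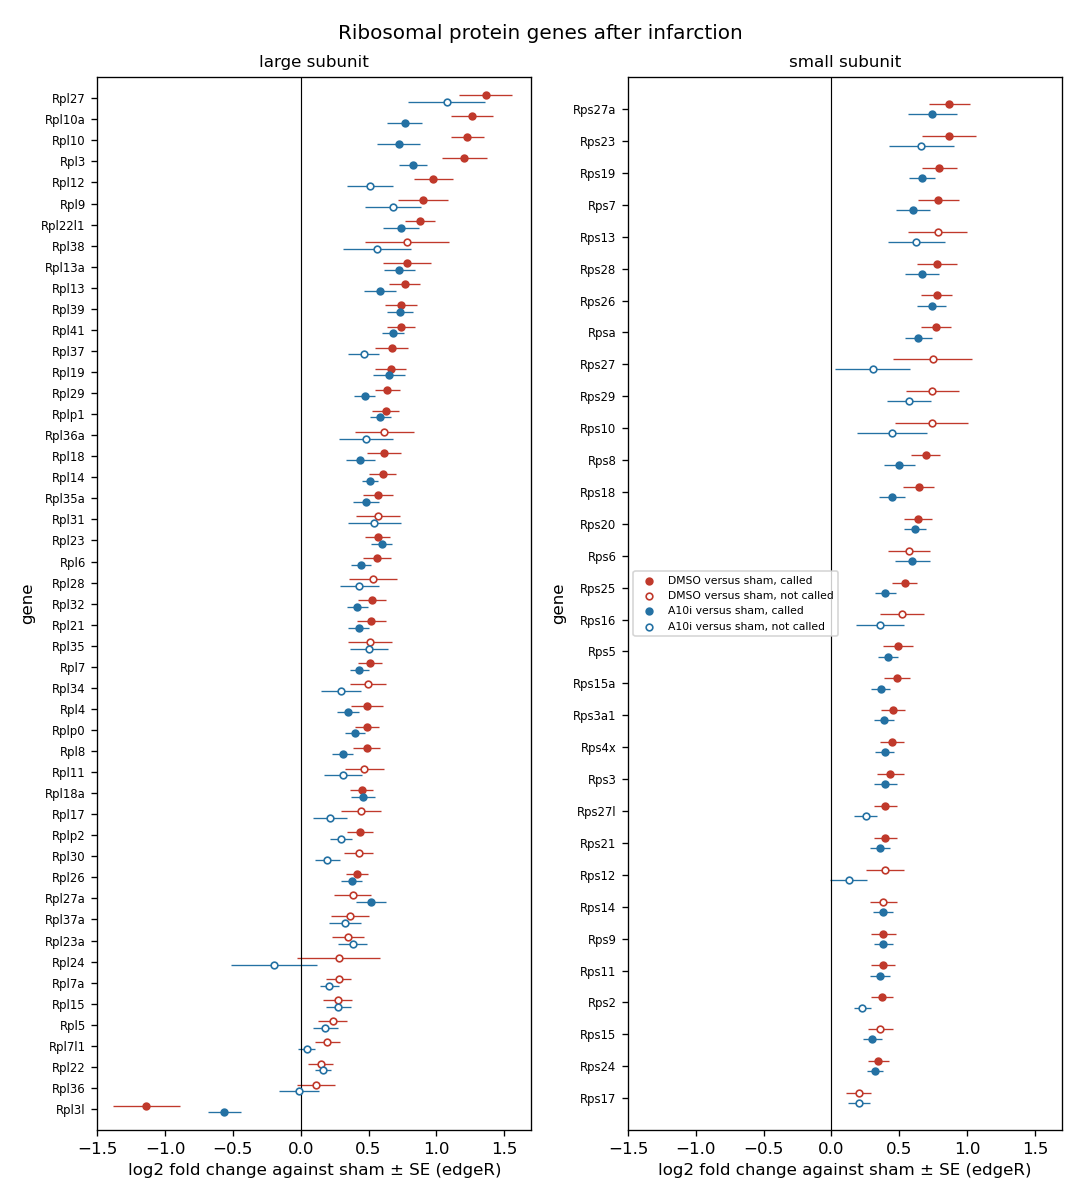
Points give the edgeR log2 fold change of each tested member against sham with its SE, in red for DMSO and in blue for A10i, for the large subunit (left) and the small subunit (right). Filled points were called at an adjusted p under 0.01. All members but Rpl3l lie right of 0 for DMSO.

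With the inhibitor the family was again higher than in sham. In A10i 47 of the 81 members were called higher, beside 13.7% of the 16971 genes tested, and Rpl3l alone was called lower, beside 9.11% of genes. The median log2 fold change was 0.43 over the members and -0.01 over all genes, and 78 members were above 0, as were 49.5% of all genes. In 69 members every A10i mouse lay above every sham mouse, which 24.8% of all genes did. Both comparisons use the same 3 sham mice and are not independent. The calls fell to 14, 17 and 18 without mouse S1, S2 or S3 and to 31 without A120, where 6.22%, 6.46%, 6.15% and 10.5% of all genes were called higher. With total counts alone as scaling the median was 0.62 and that of all genes 0.18.

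Side by side, 43 members were called higher against sham in both ligated groups, 8 in DMSO alone and 4 in A10i alone. The shares of all genes called in both groups or in a single group were not counted, and the same sham mice enter both comparisons. A call in one group alone does not show a difference between the groups. Rps6, Rps14, Rps15 and Rpl27a were the ones called in A10i only, with log2 fold changes of 0.60, 0.38, 0.30 and 0.52 in A10i and 0.57, 0.38, 0.36 and 0.38 in DMSO. All 8 ligated hearts lay above all 3 sham hearts in 68 of the 81 members (84.0%), compared with 18.7% of the 16764 genes tested in both comparisons.

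By role, 22 of 43 large subunit members, 22 of 31 small subunit members and 2 of 3 stalk proteins were called higher in A10i. Rpl41 stood at 140.5 to 166 CPM in the A10i mice and rose by 0.68 ± 0.08 (edgeR adjusted p = 0.000307). Rpl14 rose by 0.51 ± 0.06 (edgeR adjusted p = 0.000349), Rpl3 by 0.83 ± 0.10 (edgeR adjusted p = 0.000372), Rpl23 by 0.60 ± 0.08 (edgeR adjusted p = 0.000488) and Rps20 by 0.61 ± 0.08 (edgeR adjusted p = 0.000511). Rplp2 missed the threshold at 0.30 ± 0.08 (edgeR adjusted p = 0.0144), and so did Rps27l at 0.25 ± 0.08 (edgeR adjusted p = 0.0372). Rpl22l1 rose in A10i too, by 0.74 ± 0.13 (edgeR adjusted p = 0.00217), and Rpl22 was again not called, at 0.16 ± 0.06 (edgeR adjusted p = 0.0439). Rpsa, Rplp0 and Rpl39 rose by 0.64 ± 0.10, 0.40 ± 0.07 and 0.73 ± 0.10 (edgeR adjusted p = 0.00113, 0.00223 and 0.00056).

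The direct comparison of A10i with DMSO asked whether ADAM10 inhibition altered these genes within infarcted hearts. No member was called in either direction by edgeR in the main fit, nor was any of the 16792 genes tested (0.0%), and limma-voom also called no gene. In an edgeR fit of all 11 libraries 2 genes were called higher and 9 lower. Without a filter on low counts these were 18 and 25, and neither fit called a member. The authors, using DESeq2 with a weighted adjustment, reported genes in both directions at a false discovery rate of 0.01. DESeq2 called no member, while over all 18151 genes with an adjusted p it called 104 higher (0.573%) and 123 lower (0.678%). At an unadjusted p under 0.05, 1 member was higher (Rpl3l) and 5 were lower, or 6.17%, beside 6.73% of all genes lower and 7.1% higher. Members nonetheless leaned to one side. The log2 fold change was below 0 in 73 of 81 members, compared with 49.3% of all genes, with a median of -0.12 over the members and 0.00 over all genes. The median was -0.06 without mouse A129. Members share their libraries, so that they are not 81 separate observations. For each mouse, the median log2 difference of the members from the sham mean was also taken. It was 0.353 to 0.686 in the DMSO mice and 0.334 to 0.544 in the A10i mice, which overlap. The 4 A10i mice were all below the 4 DMSO mice in 3 members (3.7%, beside 4.11% of all genes) and all above them in none (4.01% of all genes). The mean of the A10i mice lay between those of sham and DMSO in 73 members. The share of all genes with this order was not counted, and the same DMSO mice enter both sides of it.

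The lower members with the smallest p were Rpl10, Rpl10a and Rpl12, and none passed the threshold. Rpl10 was at 12, 9.01, 8.05 and 8.81 CPM in the A10i mice, below all 4 DMSO mice, a difference of -0.51 ± 0.13 (log2, edgeR adjusted p = 0.14). Rpl10a was at 14.8, 11.2, 10.9 and 11.1 CPM in A10i, where mouse A116 reached into the DMSO range, with a difference of -0.50 ± 0.15 (edgeR adjusted p = 0.187). Rpl12, next to the stalk in the large subunit, differed by -0.47 ± 0.15 (edgeR adjusted p = 0.217). On the higher side stood Rpl3l, Rpl27a (0.13 ± 0.13) and Rpl23 (0.03 ± 0.09), the last of which changed sign without mouse A128. Among well covered members, Rpl8 differed by -0.18 ± 0.10, Rplp0 by -0.09 ± 0.09 and Rplp1 by -0.04 ± 0.10.

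**Figure D4:**
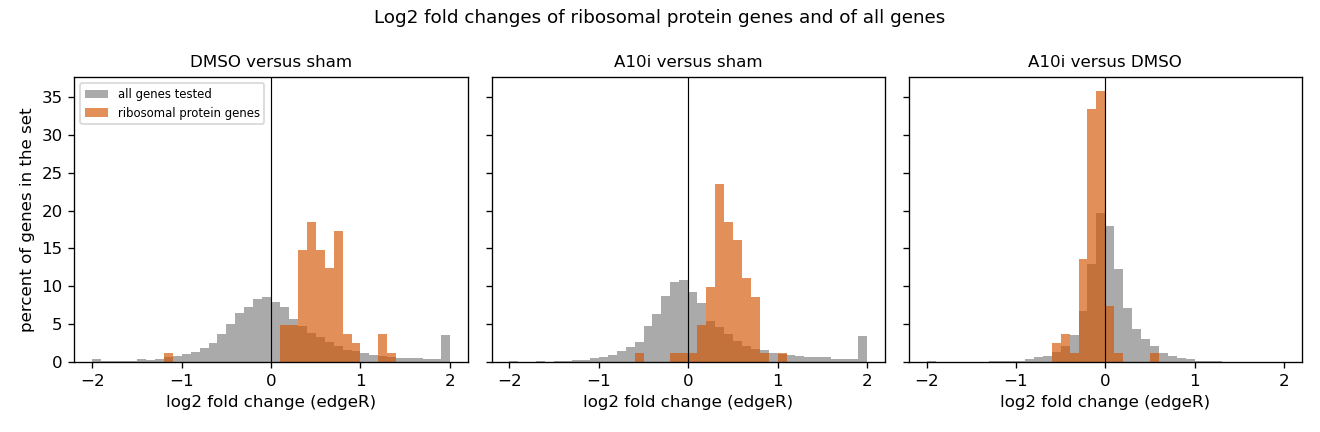
Percent of genes (y axis) by edgeR log2 fold change (x axis, steps of 0.1) for all genes tested (grey) and the 81 members (orange) in the 3 comparisons. Values beyond -2 or 2 are collected in the end bars. Nearly all members lie right of 0 against sham, and most lie just left of 0 in A10i versus DMSO.

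Rpl3l, the muscle form of the protein nearest to the peptidyl transferase centre, was the single member lower in both ligated groups. Its gene lies at chr17:24727820-24736143 on the plus strand, and that of Rpl3 at chr15:80077791-80091868 on the minus strand (mm10). Rpl3l was at 205, 229.6 and 238 CPM in sham, at 120.1, 119.1, 115.8 and 52.9 CPM in DMSO (A105, A127, A128, A129) and at 116.9, 157, 158 and 172 CPM in A10i (A116, A117, A119, A120). Every ligated heart lay below every sham heart, as in 23.6% (DMSO) and 23.5% (A10i) of all genes tested. In A10i, 3 of 4 mice lay above all DMSO mice and A116 lay among them. The log2 fold change against sham was -1.14 ± 0.25 in DMSO (edgeR adjusted p = 0.00702) and -0.57 ± 0.12 in A10i (edgeR adjusted p = 0.00504). Between A10i and DMSO it was 0.57 ± 0.24, which was not called (edgeR adjusted p = 0.339). The calls against sham were lost whenever a sham mouse was left out, with adjusted p up to 0.0316 in DMSO and 0.0277 in A10i, while the log2 fold change stayed at -1.20 to -1.10 in DMSO and -0.63 to -0.52 in A10i. That in DMSO was also lost without A127 or A128 (adjusted p = 0.0115 and 0.014) and was kept without A129, at a smaller change of -0.92. Other settings that lost it were no filter on low counts in DMSO (edgeR adjusted p = 0.0603), and in A10i total counts as the only scaling (0.0131) and a fit of all 11 libraries (0.0867).

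Rpl3 went the other way. It was at 17.6, 15.7 and 17.5 CPM in sham, at 42.5, 33.7, 30.6 and 49.7 CPM in DMSO and at 35, 29.7, 27.9 and 27.1 CPM in A10i, with all ligated hearts above all sham hearts. The log2 fold change was 1.21 ± 0.17 in DMSO (edgeR adjusted p = 0.00073) and 0.83 ± 0.10 in A10i (edgeR adjusted p = 0.000372), and -0.38 ± 0.15 between A10i and DMSO (edgeR adjusted p = 0.296). Mouse A129 had the lowest Rpl3l and the highest Rpl3 of the 11 mice.

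The coding sequences of both genes are close enough to align and different enough to keep their reads apart. They had 893 of 1221 aligned positions in common (73.1%), and the longest identical run was 22 bases, so that no stretch of 100 bases was shared between them. The first 60 coding bases, from the start codon on, are given as in the GENCODE M21 transcripts, with the 13 differing bases in capitals.
Rpl3: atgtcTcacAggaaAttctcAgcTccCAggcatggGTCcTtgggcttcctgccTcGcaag
Rpl3l: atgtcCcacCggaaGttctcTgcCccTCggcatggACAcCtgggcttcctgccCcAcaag

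Rpl3l shared no 100-base stretch with any other gene, while Rpl3 shared 79.4% of its own with 7 other genes, so that its level is understated in every group. Of the summed level of both genes per exon length, Rpl3l held 96.2% ± 0.433 (SD, n = 3) in sham, 81.7% ± 9.76 (n = 4) in DMSO and 90.4% ± 2.63 (n = 4) in A10i. These percentages are too high as amounts of RNA, for the reason just given and because of the exon lengths used. Rpl3 was divided by 3175 bases of exon, where its mRNA has 1351, and Rpl3l by 1643, where its mRNA has 1375. As a share of counts alone, Rpl3l held 92.9% ± 0.781 (SD) in sham, 70.6% ± 12.9 in DMSO and 83.1% ± 4.2 in A10i. Per exon length, the sham mice lay at 95.7% to 96.6%, above all others. Mouse A129 at 67.3% was far below the other DMSO mice, which lay at 84.5% to 88%. Two-sided exact permutation tests gave p = 0.0571 for DMSO and for A10i against sham, the smallest that 3 against 4 mice allow, and p = 0.0857 for A10i against DMSO, each 0.0857 after adjustment over the 3 comparisons. None passes 0.05.

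Rpl3l was also set against the mean log2 level of the 15 cardiomyocyte markers, a measure chosen after the data were seen. The difference was -4.21 ± 0.104 (SD, n = 3) in sham, -4.72 ± 0.343 (n = 4) in DMSO and -4.32 ± 0.0979 (n = 4) in A10i. Relative to the markers, Rpl3l lay lower in all DMSO mice (-5.22 to -4.47) than in all sham mice (-4.33 to -4.14), by 0.51 in the mean (exact permutation p = 0.0571, the smallest possible). A10i mice (-4.41 to -4.22) overlapped with sham (exact permutation p = 0.229) and all lay above DMSO, by 0.402 (exact permutation p = 0.0286, the smallest possible). After adjustment over the 3 comparisons the last p was 0.0857. Without mouse A129 the difference between A10i and DMSO was 0.234. The markers did not fall alike. Against sham, their log2 fold changes ran from -1.19 (Myh6) to 0.10 (Tnnt2) in DMSO. In A10i they ran from -0.80 (Ckm) to -0.02 (Tnnt2). Rpl3l, at -1.14 in DMSO and -0.57 in A10i, lay within these ranges, so that the measure depends on the markers taken.

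**Figure D5:**
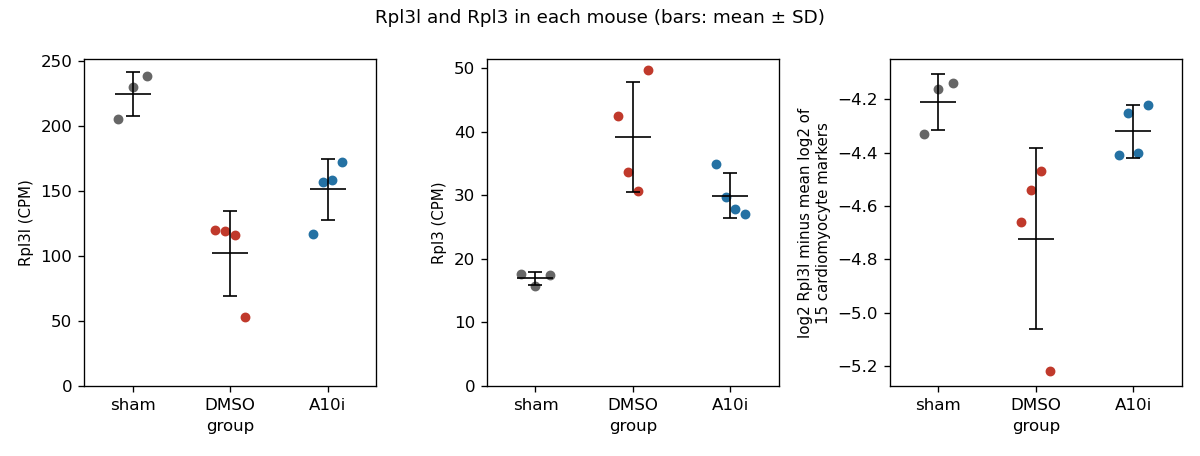
Points are mice, by group, with the mean and SD as bars. The panels give CPM of Rpl3l, CPM of Rpl3, and log2 Rpl3l minus the mean log2 CPM of 15 cardiomyocyte markers. Rpl3l is highest and Rpl3 lowest in the sham mice, and A129 is the lowest DMSO point for Rpl3l (52.9 CPM).

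Some of the other genes of translation rose too. Of 24 translation genes known or thought to carry the pyrimidine tract, 9 were called higher and none lower in DMSO, and 9 and none in A10i, beside 12.9% and 13.7% of all genes called higher, with medians of 0.36 and 0.29. Eef1a1, the elongation factor that brings tRNA, rose from 393.5 ± 8.17 CPM (SD, n = 3) to 813 ± 226 (n = 4) in DMSO and 837 ± 147 (n = 4) in A10i, by 1.05 ± 0.19 and 1.09 ± 0.13 on the log2 scale (edgeR adjusted p = 0.00271 and 0.000365). Its muscle and nerve form Eef1a2 was not called, at -0.36 ± 0.12 and -0.33 ± 0.11 (edgeR adjusted p = 0.0371 and 0.0359). Rack1, a scaffold on the small subunit, rose by 0.57 ± 0.12 and 0.45 ± 0.09 (edgeR adjusted p = 0.00421 and 0.0033), and Npm1, a nucleolar chaperone of assembly, by 0.82 ± 0.09 and 0.62 ± 0.10 (edgeR adjusted p = 0.000306 and 0.00135). Fau, whose protein yields Rps30 after cleavage of a ubiquitin-like part, rose in DMSO by 0.82 ± 0.18 (edgeR adjusted p = 0.00662) and was not called in A10i, at 0.52 ± 0.18 (edgeR adjusted p = 0.04). Eef2 and Tpt1 were not called in either, and neither was Rpl36al, which was measured at under 1 CPM.

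Of 20 genes of the mTOR pathway, of TOP mRNA binding and of ribosomal protein transcription, 3 were called higher and 2 lower in DMSO, and 1 higher and 4 lower in A10i. Among all genes 12.9% and 9.6% were called higher and lower in DMSO, and 13.7% and 9.11% in A10i, so that in DMSO these counts lie near the background. Myc, a transcription factor that drives ribosome production, rose from 2.53 ± 0.551 CPM in sham to 19.3 ± 5.61 in DMSO and 9.51 ± 2.87 in A10i (log2 fold changes 2.93 ± 0.27 and 1.91 ± 0.27, edgeR adjusted p = 0.00016 and 0.000898). Between A10i and DMSO it differed by -1.02 ± 0.25, which was not called (edgeR adjusted p = 0.14). Mtor itself and Larp1, which binds the pyrimidine tract, were not called against sham in either group. Of 12 chaperones and importers of ribosomal proteins, Grwd1, which accompanies Rpl3, was the 1 called higher in DMSO (0.70 ± 0.13, edgeR adjusted p = 0.00299), and Tsr2, which accompanies Rps26, the 1 called lower in A10i (-0.50 ± 0.09, edgeR adjusted p = 0.00248).

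The ribosome of the mitochondrion, built from other proteins, stood on the other side of 0. Of 77 tested Mrpl and Mrps genes 10 were called lower and 1 higher in DMSO, with a median of -0.22, and 7 lower and 1 higher in A10i, with a median of -0.16. The counts called lower are near the shares of all genes called lower (9.6% and 9.11%). Mrpl3 fell by 0.61 ± 0.10 in DMSO and by 0.45 ± 0.09 in A10i (edgeR adjusted p = 0.00124 and 0.00381), and Mrpl52 was the 1 that rose in both. The cardiomyocyte markers had medians of -0.68 and -0.47 in the same comparisons. No test compared the cytosolic with the mitochondrial genes as sets.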

How the data were processed

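Heart RNA of 11 mice was sequenced as poly(A)-selected, strand-specific libraries. The deposited values are raw counts per gene, which the authors made by aligning reads to mm10 with GSNAP and assigning uniquely aligned reads to Ensembl 98 genes with featureCounts 2.0.1 (reads converted with bcl2fastq 2.20.0). The strand setting of the counting is not given in the sources used here, so that overlapping and antisense genes are uncertain. Because multiply aligned reads were dropped, counts of members with processed copies are too low.

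From the counts, 92 spike-in rows were left out (14 to 55 counts per library). Symbols came from GENCODE M21 for 55240 of 55421 IDs. Each comparison was fitted on its own libraries with edgeR 4.0.16 (filterByExpr, TMM, robust quasi-likelihood F-test, R 4.3.3), with Benjamini-Hochberg adjustment over all genes tested and a threshold of 0.01. CPM values are TMM-scaled over all 11 libraries. Exact permutation tests are two-sided. Shared sequence was counted as 100-base windows of the mRNA found in GENCODE M21 transcripts of other genes. Alternatives were DESeq2 1.42.0, limma-voom 3.58.1, other scalings and filters, a threshold of 0.05, a fit of all 11 libraries, and leaving out each library. The fits were also run on simulated counts with known changes and the same dispersion (spread between libraries) for every gene. Real hearts need not share that setting, so the run does not show how well small changes are found here.

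Named members were 24 genes of general interest, the 5 called members of smallest p in each direction, the 3 of smallest unadjusted p in each direction where none was called, and the 3 highest and lowest per length in sham. Rpl27 was named after its values were seen. The members and the lists (translation, regulators, chaperones, cell type markers) were chosen with earlier results of these data known. Intervals were not given for single libraries, and p-values set a difference between groups against the spread between mice.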

Additional observations from a re-analysis of the deposited data

Results flagged for a closer look

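Among 70 groups of 4 mice examined for a single far value, 4 had one, and chance gives about 1 in 20. Mouse A129 of the DMSO group had Rpl3l at 52.9 CPM, where the other DMSO mice had 115.8 to 120.1 CPM. In the same mouse Rpl3l made up 67.3% of Rpl3l plus Rpl3 per length, where the others had 84.5% to 88%. Mouse A116 of the A10i group had Rpl10a at 14.8 CPM, where the others had 10.9 to 11.3 CPM, and Rpl13a at 18.6 CPM, where the others had 14.8 to 15.1 CPM. A129 had the lowest cardiomyocyte marker sum of all mice (49900 CPM), and A116 the lowest of the A10i mice (63700 CPM) and the highest fibroblast sum of all (10100 CPM). The part of these sums in the values was not tested.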

How the results depend on the processing

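The members' medians kept their sign in the 3 comparisons under every alternative run. With total counts as the only scaling, the median log2 fold changes of the members were 0.737 (DMSO versus sham) and 0.623 (A10i versus sham). Members called higher ranged from 14 to 57 (DMSO versus sham) and 14 to 49 (A10i versus sham) when each mouse was left out, and members called lower from 0 to 1 in both. Rpl3l, the 1 called lower, was not called without a filter on low counts in DMSO (0 members), nor with total counts as scaling or all 11 libraries in one fit in A10i (0 members). Without mitochondrial genome counts the members' shares were 0.447% (sham), 0.655% (DMSO) and 0.617% (A10i), and with pseudogenes added 0.591%, 0.959% and 0.893%. The difference of Rpl3l relative to cardiomyocyte markers between A10i and DMSO ranged from 0.234 to 0.486, with an exact permutation p of 0.0571 with 3 against 4 mice, the smallest possible there. Between A10i and DMSO, small uncalled log2 values changed sign. Rpl22 went to -0.00348 with total counts as scaling. When single mice were left out, Rps6, Rpl22, Rpl39, Rps14, Rpl23 and Rpl13a changed sign. Over all 17 settings, the main one included, the ranges were -0.0564 to 0.138 (Rps6), -0.0392 to 0.0567 (Rpl22) and -0.0875 to 0.0627 (Rpl39). Those of Rps14, Rpl23 and Rpl13a were -0.0609 to 0.0403, -0.0183 to 0.0716 and -0.147 to 0.0886. No paired analysis was possible because the groups share no replicate numbers. Levels under about 2 CPM rest on few counts, and unique alignment limits most members.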
